A study of Mus musculus with 9 samples.

Results

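The integrated stress response and amino acid genes are 36 genes chosen by name, and their rows were found in the exon count table by Ensembl gene identifier: all 36 were present among 52550 rows. They cover the transcription factor ATF4 and its partners, the kinases and a phosphatase subunit that act on the initiation factor eIF2, enzymes of serine, asparagine, proline and folate metabolism, and transporters that carry amino acids across the cell membrane. Transcripts were counted in V6.5 cells, a mouse embryonic stem cell line, in 5 libraries labelled KLF2/KLF4 DKO (a knockout of both factors) and 4 libraries labelled wildtype (WT). The medium of all 9 was Knockout DMEM to which 15% FBS, antibiotics, L-glutamine and non-essential amino acids had been added, plus Lif and 2i, a pair of inhibitors against GSK and MEK. Libraries were made with a kit that reads the 3′ ends of polyadenylated RNA, and the labels name neither clones nor separate cultures, so p-values reflect only how these samples scatter, which could be technical scatter.

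In the integrated stress response, kinases such as PERK and GCN2 phosphorylate eIF2 when the endoplasmic reticulum is stressed or amino acids run short. General translation falls, while the ATF4 message is translated better, and ATF4 protein then switches on genes for amino acid synthesis, amino acid uptake and transfer RNA charging. Much of this control acts on translation and protein, which transcript counts do not see. Mouse embryonic stem cells are known for a strong dependence on threonine, which feeds folate metabolism.

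The counts of the genes named by the knockout go against its label: Klf2 had 3750 to 4044 counts in the libraries labelled DKO and 3042 to 3297 in WT, and Klf4 had 9385 to 10778 in the libraries labelled DKO and 5085 to 6183 in WT. Which part of each gene was deleted is not stated in the labels, and 3′ reads outside it check nothing, so every direction below rests on the labels as they stand. Library totals were 6035642 to 6617834 counts in the libraries labelled DKO and 6557408 to 7098530 in WT. Levels are CPM, counts relative to the scaled size of the library, and 3 counts, taken as the floor, equal 0.423 to 0.497 CPM before scaling. The 8 stem cell markers summed to 3690 to 3969 CPM in the libraries labelled DKO and 2585 to 2673 CPM in WT, with all 8 detected in every library, and 6 of them rose, Zfp42 fell and Pou5f1 did not pass. The 8 fibroblast markers summed to 4.76 to 7.36 CPM in the libraries labelled DKO and 11.6 to 15.2 CPM in WT. Col5a1 was the only fibroblast marker with enough reads to be tested (log2 fold change -1.43), Lum had 0 counts in all 9 libraries and Dcn 1 count in WT 3. Of the 5 blood and endothelial markers, which summed to 52.8 to 64.4 CPM in the libraries labelled DKO and 64.6 to 80.0 CPM in WT, Pecam1 held nearly all reads and the other 4 had at most 7 counts in a library. The part of these markers in the results below was not tested.

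ATF4 binds DNA with C/EBP partners at a composite element, called CARE, whose core was searched as TGATGNAA on both strands in the 300 bases around each transcript start (250 before and 50 after, RefSeq, build GRCm38.p6, the assembly also called mm10). Of the members, 30 had at least 1 such window, and 8 of these (26.7%) held the core, against 4.51% of all 27025 genes with a window. The stretches that hold it are shown because these members share the element and yet did not move alike. Each reads 5′ to 3′ along the gene, with 25 bases on either side of the matches and the core in capitals.
Atf3 (chr1:191183411-191183468, minus strand): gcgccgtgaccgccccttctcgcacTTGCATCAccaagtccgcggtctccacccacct
Nupr1 (chr7:126625548-126625605, minus strand): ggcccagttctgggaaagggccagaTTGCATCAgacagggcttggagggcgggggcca
Trib3 (chr2:152344014-152344071, minus strand): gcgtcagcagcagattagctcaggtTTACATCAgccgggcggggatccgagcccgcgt
Chac1 (chr2:119351024-119351081, plus strand): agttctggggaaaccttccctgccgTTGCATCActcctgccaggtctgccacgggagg
Asns (chr6:7693200-7693257, minus strand): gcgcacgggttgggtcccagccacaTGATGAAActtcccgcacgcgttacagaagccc
Pycr1 (chr11:120643819-120643876, minus strand): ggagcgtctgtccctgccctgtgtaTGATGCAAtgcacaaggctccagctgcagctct
Slc1a4 (chr11:20332685-20332742, minus strand): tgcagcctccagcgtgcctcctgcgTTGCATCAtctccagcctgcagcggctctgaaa
Slc7a11 (chr3:50443628-50443704, minus strand): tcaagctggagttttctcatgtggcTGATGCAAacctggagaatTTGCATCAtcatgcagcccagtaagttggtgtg

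In Asns and Pycr1 the core reads forward, in Slc7a11 in both directions, and in the other 5 it appears as its reverse complement. It began 110 bases before the start in Atf3 and in Nupr1, 193 before it in Chac1, 103 before it in Pycr1, 66 and 47 before it in Slc7a11, 23 before it in Asns and 4 before it in Slc1a4, while in Trib3 it lay 14 bases after it. A match of letters is a description and not a binding site, and since ATF4 targets were among the genes chosen, the share in the members says nothing new of them.

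A second search asked for CCACNCCC, a core of the GC-rich boxes that KLF and SP factors recognise, also on both strands. It was held by 10 of the 30 members with a window (33.3%) and by 19.7% of all genes. It is shown for the 4 of these 10 that passed the test below, since the libraries are labelled by KLF genotype. Passing was no more common among these 10 than over all genes tested (47.8%) or over the tested members (62.9%). The 4 stretches belong to members that went both ways.
Ddit4 (chr10:59951855-59951912, minus strand): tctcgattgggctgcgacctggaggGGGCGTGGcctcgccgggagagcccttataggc
Shmt1 (chr11:60811404-60811461, minus strand): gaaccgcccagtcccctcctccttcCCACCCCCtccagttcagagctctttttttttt
Slc7a1 (chr5:148392823-148392880, minus strand): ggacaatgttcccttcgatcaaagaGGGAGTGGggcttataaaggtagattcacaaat
Slc3a2 (chr19:8713858-8713915, minus strand): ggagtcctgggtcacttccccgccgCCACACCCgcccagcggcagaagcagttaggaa

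The other 6 members with it were Asns, Psph, Cebpg, Cebpb, Ddit3 and Eif2ak4, none of which passed. Among the 30 members with a window, only Asns held both cores, which did not overlap, at 58 and 23 bases before the start. Slc7a5, Slc7a3, Slc1a5, Eif4ebp1, Slc38a1 and Aldh1l2 had no window, so neither core was searched for in them. The endoplasmic reticulum stress element (ERSE) matched 0 of the 30 members with a window and 0.137% of all genes.

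Of the 36 members, 35 had enough reads to be tested, of which 9 rose and 13 fell at an edgeR adjusted p under 0.05. Over all 11893 genes tested, 23.9% rose and 24.0% fell, together 47.8%, and the 22 members that passed are 62.9% of those tested. With so large a share of all genes moving, a passing member is no rare event in these libraries. The counts by role below are to be read against these shares, and each rests on few genes. The median log2 fold change of the tested members was -0.02, and that of all genes 0.01. All libraries labelled DKO lay below all WT libraries for 11 tested members (31.4%) and above them for 7 (20%), against 19.1% and 18.4% of all genes. Of the passing members, 8 fell and 3 rose by at least 0.5 on the log2 scale, sizes that 12.8% and 11.5% of all genes reached in those directions. In bulk RNA, fewer cells with a transcript and less of it per cell cannot be told apart.

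**Figure D1:**
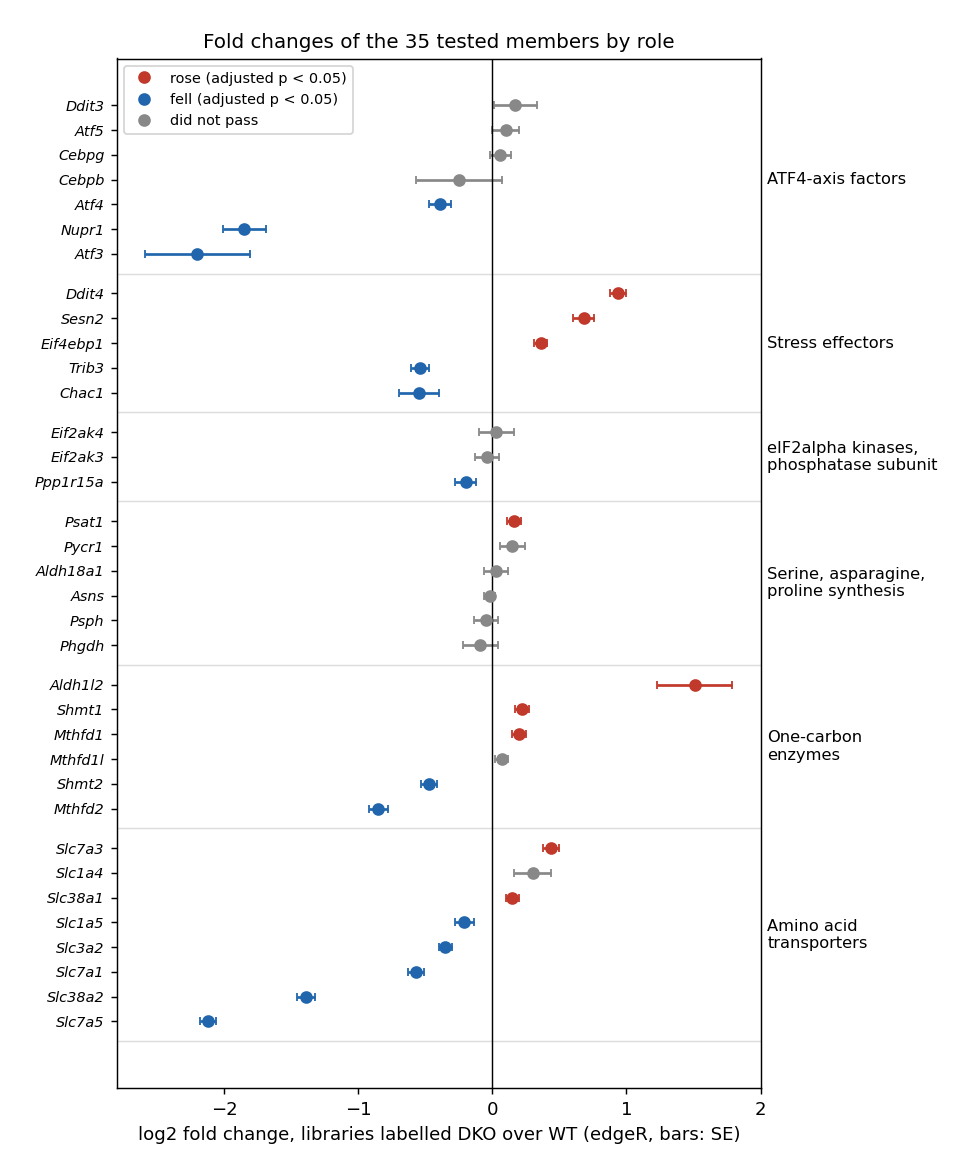
Log2 fold change of each of the 35 tested members (horizontal axis, libraries labelled DKO over WT, bars give the SE), grouped by role. The 6 enzymes of serine, asparagine and proline synthesis sit within 0.16 of 0, while Slc7a5, Slc38a2, Nupr1 and Atf3 lie furthest to the left and Aldh1l2 and Ddit4 furthest to the right.

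Among the transcription factors of the ATF4 axis, 3 of 7 fell, none rose and 4 did not pass, where 24.0% of all genes fell. Atf4 (ATF4 itself, ENSMUSG00000042406, chr15:80255184-80257541, plus strand) had 319.6, 382, 416, 448 and 371 CPM in DKO 1 to 5, against 506, 513, 553 and 461 CPM in WT 1 to 4. The highest library labelled DKO, DKO 4, stayed under the lowest WT library, so the groups did not overlap, and DKO 1 was the lowest. Atf4 averaged 387 ± 48.4 CPM in the libraries labelled DKO and 508 ± 37.7 CPM in WT (log2 fold change -0.39 ± 0.08 (SE), edgeR adjusted p = 0.00126, n = 5 and 4). Here and below, the error of a mean level is the SD over the 5 libraries labelled DKO or the 4 WT libraries, and adjusted p-values are Benjamini-Hochberg values over all genes tested.

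Nupr1, a small chromatin-associated stress protein (ENSMUSG00000030717, chr7:126623249-126630861, minus strand), had 6.58, 14.1, 9.52, 10.5 and 11 CPM in DKO 1 to 5, against 27.8, 38.3, 44.8 and 38.2 CPM in WT 1 to 4. Every library labelled DKO was below every WT library, and the lowest WT library, WT 1, was still above the highest labelled DKO, DKO 2. Its level was 0.277 times that of WT (log2 fold change -1.85 ± 0.16 (SE), edgeR adjusted p = 3.4e-09).

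Atf3, a stress-induced repressor and activator of the bZIP class, like ATF4 (ENSMUSG00000026628, chr1:191170296-191218039, minus strand), was scarce in both groups. It had 2, 10, 3, 3 and 2 counts in DKO 1 to 5, against 19, 18, 24 and 20 in WT 1 to 4. The groups did not overlap, but 4 of the 5 libraries labelled DKO were at or under the floor of 3 counts, so the size of its fall (log2 fold change -2.20 ± 0.39 (SE), edgeR adjusted p = 1.5e-05) is loosely fixed. DKO 2 stood well above the other libraries of its group. The 36 tested genes within 5 Mb of Atf3 had a median of 0.24, and all 36 had a higher value than Atf3.

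Ddit3, which encodes the pro-apoptotic factor CHOP, had 10.8, 13.3, 12.3, 16.7 and 11.2 CPM in DKO 1 to 5, against 13.6, 7.32, 12.6 and 11.8 CPM in WT 1 to 4. The groups overlapped, with WT 2 the lowest and DKO 4 the highest of all, and the gene did not pass (log2 fold change 0.17 ± 0.16 (SE), edgeR adjusted p = 0.395). The last 500 bases of its locus carry exons of Mars1, the methionyl-tRNA synthetase, on the other strand (Mars1 log2 fold change 0.09, not passing), and reads of the pair cannot be told apart without the strand setting of the counting.

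The other 3 factors gave overlapping groups. Atf5, a factor of the mitochondrial stress response, averaged 34.7 ± 5.35 CPM in the libraries labelled DKO and 32.5 ± 0.309 CPM in WT (log2 fold change 0.10, edgeR adjusted p = 0.434). Cebpg, a C/EBP partner of ATF4, averaged 43.7 ± 3.27 CPM in the libraries labelled DKO and 42.0 ± 3.27 CPM in WT (0.06, adjusted p = 0.589), and Cebpb, another partner, averaged 2.36 ± 0.620 CPM in the libraries labelled DKO and 2.8 ± 1.41 CPM in WT (-0.25, adjusted p = 0.546). Atf5 shares exon sequence with Nup62 and Cebpb with Tmem189 on the opposite strand, both away from the last 500 bases of the member.

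**Figure D2:**
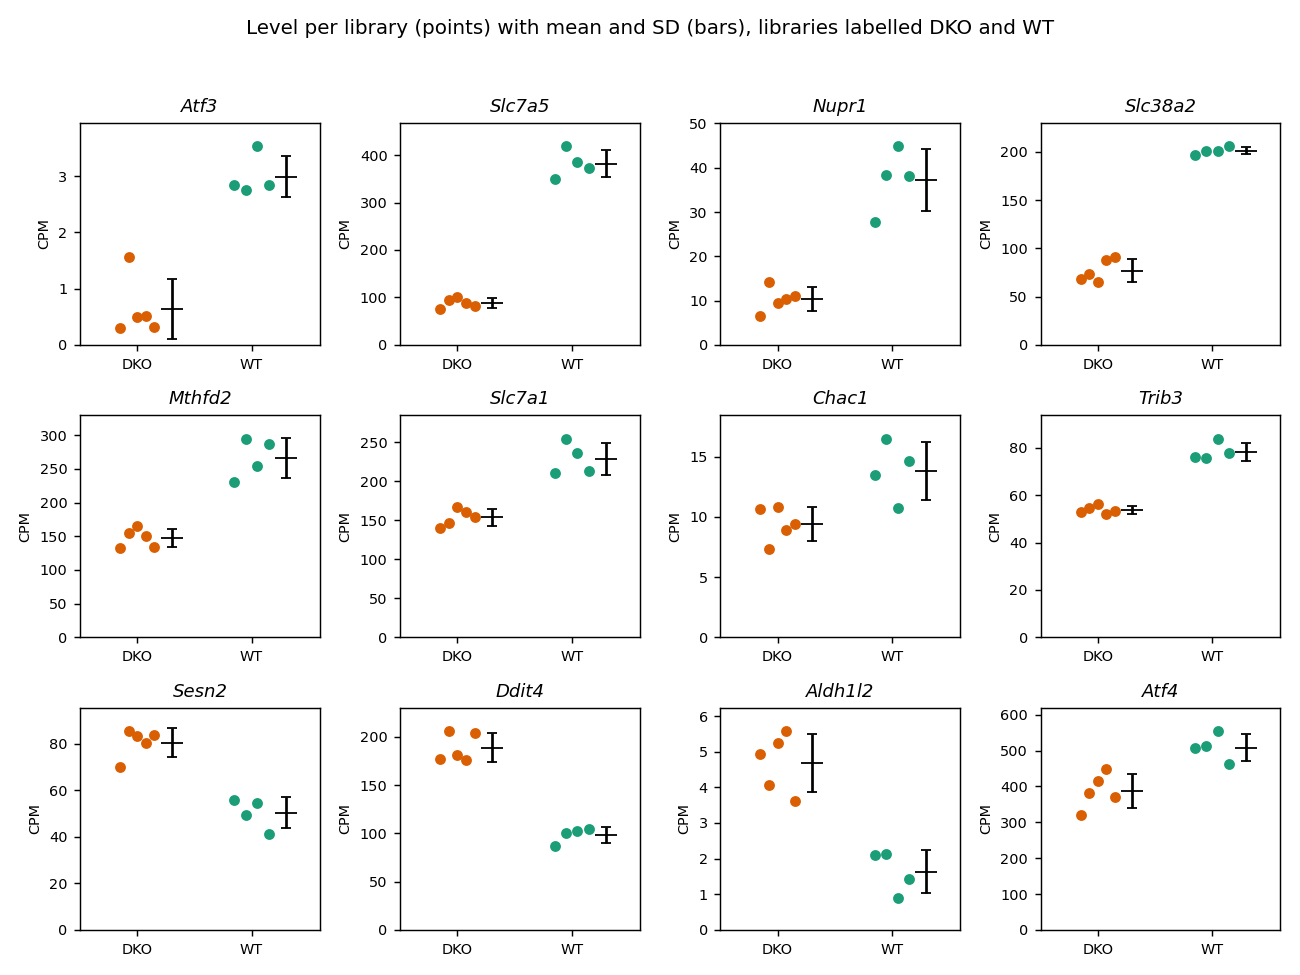
CPM in each library (points, vertical axis from 0) of the 11 members that passed with a log2 fold change of at least 0.5 in size, and of Atf4, with the mean and SD of each group as bars. The libraries labelled DKO (left of each panel) and WT (right) do not overlap in any panel but that of Chac1.

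The effectors of the response split into both directions, with 3 that rose and 2 that fell among 5. The shares over all genes were 23.9% and 24.0%. Ddit4, which encodes REDD1, an inhibitor of the growth kinase complex mTORC1 (ENSMUSG00000020108, chr10:59949669-59951834, minus strand), had 177, 206, 182, 176 and 204 CPM in DKO 1 to 5, against 86.8, 100.5, 102 and 105 CPM in WT 1 to 4. The lowest library labelled DKO was far above the highest WT library. Its level was 1.92 times that of WT (log2 fold change 0.94 ± 0.06 (SE), edgeR adjusted p = 1.5e-14), rank 184 of the 11893 genes by p.

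Sesn2, a leucine sensor that also restrains mTORC1 (ENSMUSG00000028893, chr4:132492032-132510501, minus strand), had 70.0, 85.2, 83.4, 80.3 and 83.5 CPM in DKO 1 to 5, against 56.0, 49.5, 54.5 and 41.3 CPM in WT 1 to 4. All 5 libraries labelled DKO were above all 4 WT libraries (log2 fold change 0.68 ± 0.08 (SE), edgeR adjusted p = 1.1e-08). Ddit4 and Sesn2 are both known targets of p53 as well as of ATF4.

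Eif4ebp1, a translation repressor that mTORC1 switches off (ENSMUSG00000031490, chr8:27260329-27276674, plus strand), averaged 596 ± 17.9 CPM in the libraries labelled DKO and 464 ± 27.5 CPM in WT (log2 fold change 0.36 ± 0.05 (SE), edgeR adjusted p = 5.2e-08), and its groups did not overlap. It lies on proximal chromosome 8, where the 54 tested genes within 5 Mb of it had a median log2 fold change of 0.49, above its own 0.36. Of those neighbours 35 had a higher value and 19 a lower one.

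Trib3, a pseudokinase that ATF4 and CHOP induce and that feeds back on ATF4 (ENSMUSG00000032715, chr2:152337422-152344032, minus strand), had 52.9, 54.7, 56.1, 52.0 and 53.2 CPM in DKO 1 to 5, against 76.0, 75.6, 83.7 and 77.8 CPM in WT 1 to 4. Both groups were tight, and they did not overlap (log2 fold change -0.54 ± 0.07 (SE), edgeR adjusted p = 1.9e-08). Chac1, an enzyme that breaks down glutathione and a sensitive reporter of ATF4 activity (ENSMUSG00000027313, chr2:119351229-119354381, plus strand), had 10.6, 7.37, 10.8, 8.94 and 9.42 CPM in DKO 1 to 5, against 13.5, 16.5, 10.7 and 14.6 CPM in WT 1 to 4. It fell as well (log2 fold change -0.55 ± 0.15 (SE), edgeR adjusted p = 0.00299), though WT 3 lay just below the highest library labelled DKO.

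Of the eIF2 kinases and phosphatase genes, neither kinase passed. Eif2ak3, which encodes PERK, the kinase of the endoplasmic reticulum (ENSMUSG00000031668, chr6:70844515-70905245, plus strand), had 32.6, 30.7, 32.7, 30.9 and 28.7 CPM in DKO 1 to 5, against 34.5, 30.6, 35.5 and 27.0 CPM in WT 1 to 4. The groups overlapped throughout (log2 fold change -0.04 ± 0.09 (SE), edgeR adjusted p = 0.777), whereas the 40 tested genes within 5 Mb of it on chromosome 6 had a median of -0.26.

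Eif2ak4, which encodes GCN2, the kinase that senses uncharged transfer RNA (ENSMUSG00000005102, chr2:118388618-118475234, plus strand), had 14.4, 15.8, 12.5, 14.3 and 12.4 CPM in DKO 1 to 5, against 13.3, 12.2, 13.7 and 15.3 CPM in WT 1 to 4. These groups overlapped too (log2 fold change 0.03 ± 0.13 (SE), edgeR adjusted p = 0.894).

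Ppp1r15a, or GADD34, the inducible subunit that directs phosphatase to eIF2 (ENSMUSG00000040435, chr7:45522916-45526268, minus strand), had 41.9, 41.2, 35.1, 40.3 and 40.5 CPM in DKO 1 to 5, against 44.3, 45.9, 44.5 and 48.4 CPM in WT 1 to 4. The groups did not overlap, with DKO 3 apart below the others, and the fall was small (log2 fold change -0.20 ± 0.08 (SE), edgeR adjusted p = 0.035). The call was lost without DKO 3 (adjusted p = 0.1), WT 2 (0.0583), WT 4 (0.1) or DKO 4 and 5 together (0.0618) and with no filter on low counts (0.0712), and the adjusted p lay between 0.0281 and 0.1 in 19 other fits. The end of its locus is shared with Tulp2 on the other strand.

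The synthesis enzymes hardly differed. Of 6, only Psat1 passed. Asns, asparagine synthetase and a textbook ATF4 target (ENSMUSG00000029752, chr6:7675169-7693254, minus strand), averaged 475 ± 13.3 CPM in the libraries labelled DKO and 480.5 ± 20.2 CPM in WT (log2 fold change -0.02 ± 0.04 (SE), edgeR adjusted p = 0.779), and its libraries ran from 463 to 497 CPM in those labelled DKO and from 465 to 509.9 CPM in WT. The groups overlapped almost fully. The 18 tested genes within 5 Mb of Asns had a median of 0.17, and 13 of them had a higher value than Asns. Trib3, Chac1, Nupr1 and Atf3, which hold the same core near their starts, fell. Pycr1 and Slc1a4, which also hold it, did not pass. The difference between these members was not tested.

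Psat1, the aminotransferase of the serine pathway, averaged 351 ± 22.4 CPM in the libraries labelled DKO and 314 ± 22.0 CPM in WT (log2 fold change 0.16 ± 0.05 (SE), edgeR adjusted p = 0.0125), with overlapping groups. That rise was lost without DKO 5 (adjusted p = 0.0502), WT 1 (0.0845), WT 3 (0.0567) or DKO 4 and 5 together (0.16), with 19 other fits between 0.00165 and 0.16, and the 22 tested genes within 5 Mb had a median of 0.28. Psph, the last enzyme of that pathway, averaged 48.9 ± 5.19 CPM in the libraries labelled DKO and 50.4 ± 5.90 CPM in WT (-0.05, adjusted p = 0.69), and shares exon sequence with Cct6a on the other strand, away from its last 500 bases.

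Phgdh, the entry enzyme of serine synthesis, averaged 19.9 ± 4.15 CPM in the libraries labelled DKO and 21.2 ± 2.31 CPM in WT (-0.09, adjusted p = 0.59), with DKO 3 lowest. Its value is uncertain, because the last 300 bases of its transcripts match 13 processed pseudogenes over at least 100 bases at 95% identity or more, up to 99.0% over the whole stretch. The proline enzymes Aldh18a1 (0.03) and Pycr1 (0.15) did not pass either. Aldh18a1 averaged 42.9 ± 4.69 CPM in the libraries labelled DKO and 42.0 ± 5.91 CPM in WT, and Pycr1 averaged 44.1 ± 3.97 CPM in the libraries labelled DKO and 39.7 ± 4.87 CPM in WT, with WT 4 above the other WT libraries. Without WT 4, Pycr1 passed upward (0.24, adjusted p = 0.0355, with all fits between 0.0355 and 0.543).

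While 23.9% of all genes rose and 24.0% fell, the folate enzymes were few. Of these enzymes, which pass carbon units between serine, glycine and formate, 3 rose, 2 fell and 1 did not pass. The 2 that fell, Mthfd2 and Shmt2, act in mitochondria, as does Aldh1l2, which rose. Mthfd2, the mitochondrial dehydrogenase and cyclohydrolase of proliferating cells (ENSMUSG00000005667, chr6:83305691-83325908, minus strand), had 133, 154, 166, 150.2 and 135 CPM in DKO 1 to 5, against 231, 294, 254 and 287 CPM in WT 1 to 4. The groups did not overlap, and the lowest WT library was well above the highest labelled DKO (log2 fold change -0.85 ± 0.07 (SE), edgeR adjusted p = 7.9e-10). Its 70 tested neighbours within 5 Mb on chromosome 6 had a median of -0.25, and 65 of them had a higher value than Mthfd2.

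Shmt2, the mitochondrial serine hydroxymethyltransferase, averaged 142 ± 9.08 CPM in the libraries labelled DKO and 196 ± 8.91 CPM in WT (log2 fold change -0.47 ± 0.06 (SE), edgeR adjusted p = 9.5e-09), again with no overlap. Its cytosolic counterpart Shmt1 averaged 379 ± 24.8 CPM in the libraries labelled DKO and 324 ± 12.6 CPM in WT and rose (log2 fold change 0.22 ± 0.05 (SE), edgeR adjusted p = 3.4e-04), with DKO 3 above the rest. The ratio of Shmt2 to Shmt1 counts was 0.353, 0.391, 0.321, 0.408 and 0.406 in DKO 1 to 5, against 0.623, 0.6, 0.557 and 0.639 in WT 1 to 4. So the balance of the pair was lower in each library labelled DKO than in any WT library, as a ratio of counts compared only across libraries. The end of the Shmt1 locus overlaps Smcr8 on the other strand (log2 fold change 0.6), which had 897 counts over all libraries, and that of Shmt2 overlaps Ndufa4l2 (-1.55), which had 82.

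Mthfd1, the cytosolic enzyme with 3 folate activities, averaged 240.2 ± 13.7 CPM in the libraries labelled DKO and 209 ± 4.19 CPM in WT and rose (log2 fold change 0.20 ± 0.05 (SE), edgeR adjusted p = 0.00148), without overlap. Mthfd1l, the mitochondrial formate synthetase, averaged 223 ± 12.8 CPM in the libraries labelled DKO and 212 ± 11.8 CPM in WT and did not pass (0.07, adjusted p = 0.285). The ratio of Mthfd2 to Mthfd1l counts lay between 0.553 and 0.773 in the libraries labelled DKO and between 1.083 and 1.336 in WT.

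Aldh1l2, a mitochondrial formyl-folate dehydrogenase (ENSMUSG00000020256, chr10:83487450-83534140, minus strand), had few reads: 33, 26, 32, 33 and 23 counts in DKO 1 to 5, against 14, 14, 6 and 10 in WT 1 to 4. The groups did not overlap, and it rose most of all members (log2 fold change 1.51 ± 0.28 (SE), edgeR adjusted p = 3.3e-05). This value is uncertain, since the last 300 bases of an Aldh1l2 transcript are wholly shared with D10Wsu102e on the opposite strand, a gene with 6721 counts over all libraries and a log2 fold change of 0.04 that did not pass.

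**Figure D3:**
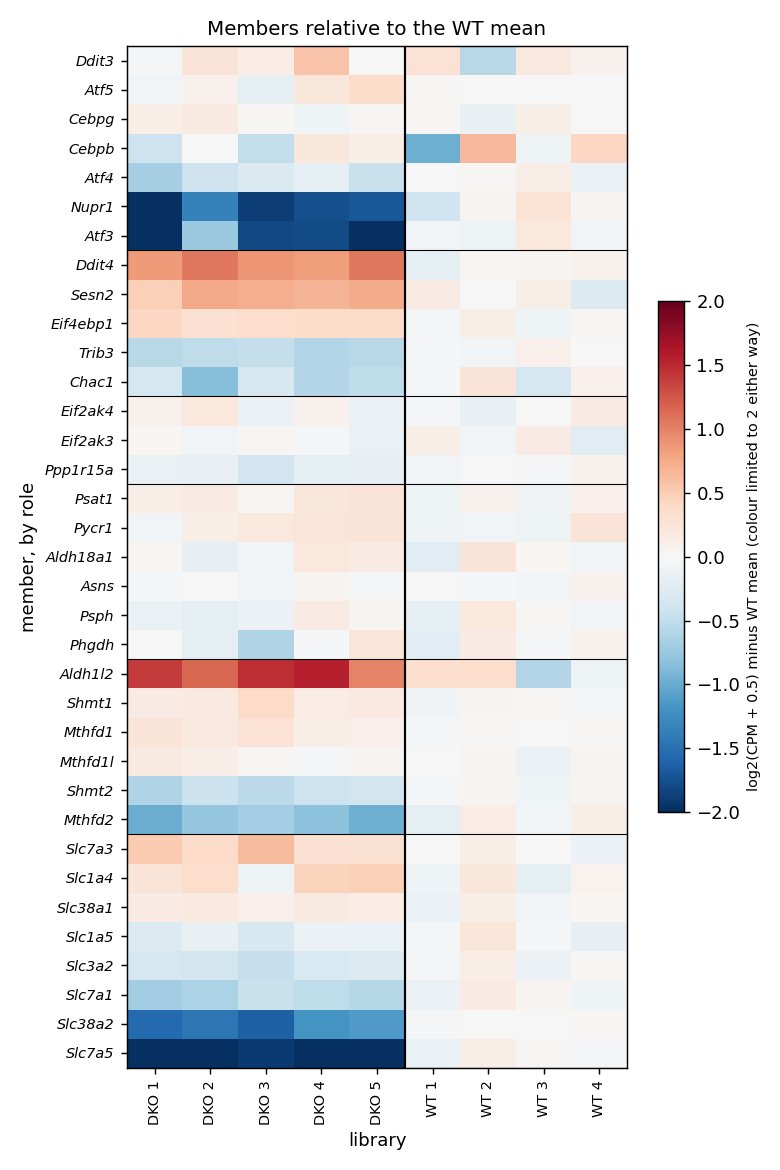
Each tested member (rows, by role) in each library (columns, those labelled DKO left of the line), as log2(CPM + 0.5) minus the WT mean, with colour limited to 2 either way. Slc7a5, Slc38a2, Nupr1 and Atf3 are low in all 5 libraries labelled DKO, Ddit4, Sesn2 and Aldh1l2 are high in all 5, and Cebpb and Ddit3 vary within both groups.

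Over all genes tested, 24.0% fell and 23.9% rose. Of the transporters, 5 of 8 tested fell and 2 rose, and Slc7a5 had the largest fall of any member with at least 10 CPM in a group. Their summed level was 1251, 1263, 1264, 1294 and 1285 CPM in DKO 1 to 5, against 1714, 1965, 1763 and 1768 CPM in WT 1 to 4, and Slc7a5 made up the largest share of that gap. Slc7a5, or LAT1, which imports leucine and other large neutral amino acids (ENSMUSG00000040010, chr8:121881150-121907694, minus strand), had 76.1, 94.0, 100.4, 88.1 and 82.1 CPM in DKO 1 to 5, against 349, 418, 386 and 374 CPM in WT 1 to 4. No library labelled DKO came near any WT library.

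Slc7a5 averaged 88.2 ± 9.57 CPM in the libraries labelled DKO and 382 ± 28.6 CPM in WT, or 0.231 times the WT level (log2 fold change -2.12 ± 0.06 (SE), edgeR adjusted p = 3.2e-21), rank 21 of the 11893 genes by p. It lies on distal chromosome 8, where the 91 tested genes within 5 Mb had a median of -0.56. Of these 89 had a higher value and 2 a lower one, and Slc7a5 stood 1.56 below the median on the log2 scale.

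Slc3a2, the heavy chain that LAT1 needs to reach the membrane (ENSMUSG00000010095, chr19:8706882-8723369, minus strand), fell far less. It averaged 378 ± 18.7 CPM in the libraries labelled DKO and 481 ± 34.7 CPM in WT (log2 fold change -0.35 ± 0.05 (SE), edgeR adjusted p = 5.1e-07), without overlap. The ratio of Slc7a5 to Slc3a2 counts was 0.200, 0.252, 0.289, 0.227 and 0.207 in DKO 1 to 5, against 0.743, 0.798, 0.875 and 0.768 in WT 1 to 4, so the counts of the partners shifted apart in every library labelled DKO.

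Slc38a2, or SNAT2, a sodium-coupled carrier of small neutral amino acids that cells induce when starved of them (ENSMUSG00000022462, chr15:96687392-96699730, minus strand), had 67.7, 73.8, 64.7, 88.1 and 90.6 CPM in DKO 1 to 5, against 197, 201, 201 and 206 CPM in WT 1 to 4. The WT libraries lay within a few CPM of each other, while DKO 4 and 5 were above DKO 1 to 3. Its level was 0.383 times that of WT (log2 fold change -1.39 ± 0.07 (SE), edgeR adjusted p = 5.5e-14), and the 79 tested genes within 5 Mb had a median of -0.08.

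Its paralogue Slc38a1, also on chromosome 15, averaged 241 ± 6.06 CPM in the libraries labelled DKO and 217 ± 16.1 CPM in WT (log2 fold change 0.15 ± 0.05 (SE), edgeR adjusted p = 0.0136). That small rise was lost without WT 1 (0.11, adjusted p = 0.0982, with 19 other fits between 0.00451 and 0.0982), and the groups overlapped. The ratio of Slc38a2 to Slc38a1 counts was 0.278 to 0.378 in the libraries labelled DKO and 0.849 to 0.985 in WT.

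Slc7a1, the cationic carrier CAT1 of arginine and lysine (ENSMUSG00000041313, chr5:148327410-148399904, minus strand), had 140.0, 147, 167, 160.0 and 154 CPM in DKO 1 to 5, against 210.3, 254, 236 and 214 CPM in WT 1 to 4. The groups did not overlap (log2 fold change -0.57 ± 0.06 (SE), edgeR adjusted p = 7.3e-10). Slc7a3, the related carrier CAT3 (ENSMUSG00000031297, chrX:101079210-101086020, minus strand), went the other way. It averaged 209 ± 21.7 CPM in the libraries labelled DKO and 155 ± 10.8 CPM in WT (log2 fold change 0.44 ± 0.06 (SE), edgeR adjusted p = 1.5e-06), with all libraries labelled DKO above all WT libraries.

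Slc1a5, or ASCT2, a glutamine carrier, averaged 108 ± 6.79 CPM in the libraries labelled DKO and 125 ± 15.3 CPM in WT (log2 fold change -0.21 ± 0.07 (SE), edgeR adjusted p = 0.0117). Its groups overlapped, and the fall was lost without WT 2 (-0.13, adjusted p = 0.125, with 19 other fits between 0.00215 and 0.125). Slc1a4, or ASCT1, averaged 16.0 ± 2.48 CPM in the libraries labelled DKO and 13.0 ± 1.73 CPM in WT and did not pass (0.30, adjusted p = 0.0684), but it passed upward without DKO 3 (0.39, adjusted p = 0.014) or WT 2 (0.37, adjusted p = 0.0424), with all fits between 0.014 and 0.363.

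Slc7a11, the cystine importer xCT, was the member with too few reads to be tested. It had 6, 1, 2, 1 and 2 counts in DKO 1 to 5, against 7, 7, 8 and 5 in WT 1 to 4, which put 4 of the 5 libraries labelled DKO under the floor of 3 counts and all 4 WT libraries above it. No fold is given.

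**Figure D4:**
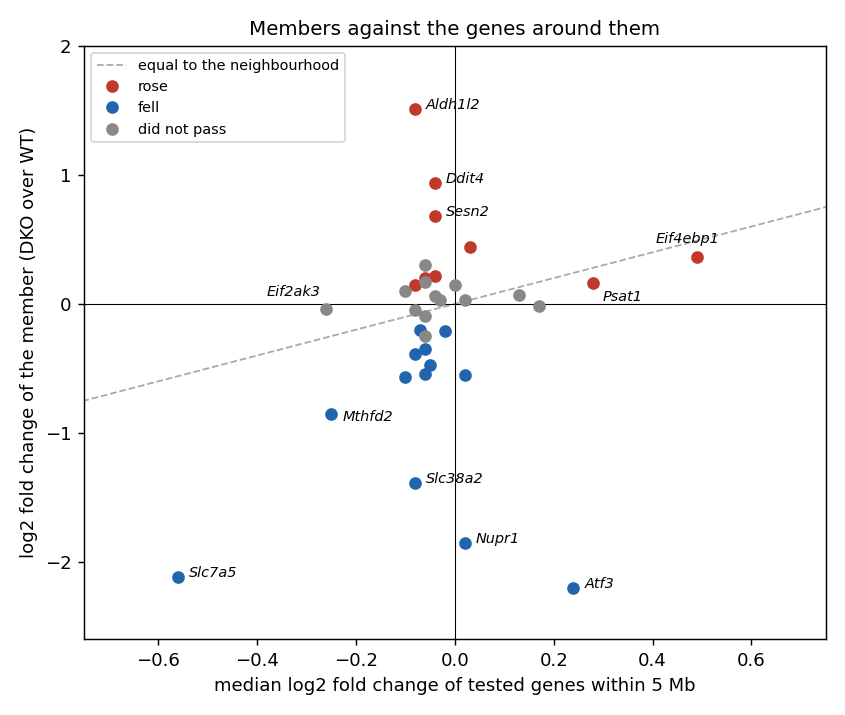
Log2 fold change of each tested member (vertical axis) against the median of the tested genes within 5 Mb of its start (horizontal axis), with a dashed line where both are equal. Slc7a5 is far left and far below the line, Eif4ebp1 is far right and just under it, and most other members sit close to a neighbourhood median of 0.

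Members varied about as much within the libraries labelled DKO as within WT. Over the 32 tested members with a mean of at least 10 CPM in a group, the median coefficient of variation was 7.72% in the libraries labelled DKO and 7.64% in WT. Asns, Trib3 and Slc38a1 were steady in the libraries labelled DKO, at 2.8%, 3.03% and 2.51%, and Nupr1 was the most variable there at 26.2%. Slc38a2 scattered more in the libraries labelled DKO, at 15.3% in the libraries labelled DKO and 1.82% in WT.

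By role, the summed levels separated the groups for some roles only. The ATF4-axis factors summed to 492 ± 50.7 CPM in the libraries labelled DKO and 637 ± 42.6 CPM in WT (SD, n = 5 and 4), mostly from Atf4. The effectors summed to 929 ± 12 CPM in the libraries labelled DKO and 705 ± 26.5 CPM in WT, mostly from Eif4ebp1, while Trib3 and Chac1 fell. The transporters summed to 1271 ± 17.5 CPM in the libraries labelled DKO and 1802 ± 111 CPM in WT. For these 2 roles and the ATF4-axis factors no library labelled DKO overlapped WT. The synthesis enzymes summed to 981 ± 43.5 CPM in the libraries labelled DKO and 948 ± 46.7 CPM in WT, the folate enzymes to 1136 ± 39.6 CPM in the libraries labelled DKO and 1210 ± 55.1 CPM in WT, and the kinases and phosphatase subunit to 84.8 ± 3.74 CPM in the libraries labelled DKO and 91.3 ± 2.12 CPM in WT. Groups overlapped for the synthesis and folate enzymes and, by a narrow margin, for the kinases and phosphatase subunit. These sums are descriptions without a test, and a sum follows its most abundant member.

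Beyond the members, 152 other genes of the pathway were listed in 8 groups, and 138 had enough reads. Of these 18 rose (13%) and 50 fell (36.2%), against 23.9% and 24.0% of all genes, with a median log2 fold change of -0.11 against 0.01. On chromosome 8 lie 12 of the listed genes, of which 10 fell, against 297 of all 664 genes tested there. Without counting chromosome 8, 17 rose and 40 fell of 126. At the same time 2612 of the 11229 genes tested off that chromosome rose and 2555 fell. The counts of single lists below are to be read against the 23.9% and 24.0% of all genes, and each rests on few genes.

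**Figure D5:**
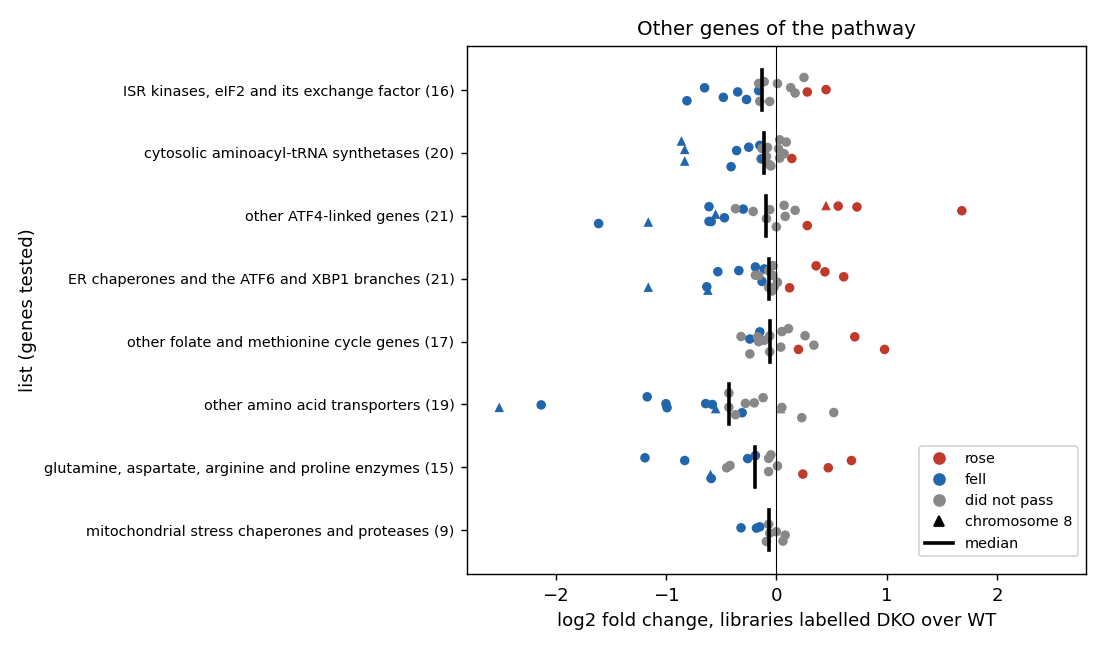
Log2 fold change of the tested genes of each of the 8 other lists (horizontal axis), with triangles for chromosome 8 and black bars for the medians. The medians run from -0.43 in the other amino acid transporters to -0.06 in the other folate and methionine cycle genes.

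Among other amino acid transporters, 9 of 19 tested fell and none rose (median -0.43). Slc6a15, a carrier of branched-chain amino acids and proline, averaged 2.19 ± 0.451 CPM in the libraries labelled DKO and 9.67 ± 0.972 CPM in WT (log2 fold change -2.13 ± 0.21 (SE), edgeR adjusted p = 1.3e-10). Slc6a8, which carries creatine, fell by less (-0.58), and Slc7a2, the cationic carrier CAT2, fell too (-2.51) but had few reads and lay near the floor, at 0.502 ± 0.183 CPM in the libraries labelled DKO and 2.99 ± 0.621 CPM in WT. Slc7a2 lies on proximal chromosome 8 among 22 tested neighbours with a median of 0.37.

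Of the cytosolic aminoacyl-tRNA synthetases, which charge transfer RNA and many of which ATF4 induces, 8 of 20 fell and 1 rose (Iars, 0.14, chosen after its value was seen), with a median of -0.11. The 3 with the smallest p were Farsa (-0.83), Kars (-0.83) and Aars (-0.86), for phenylalanine, lysine and alanine. All 3 lie on chromosome 8. The genes within 5 Mb of Farsa, Kars and Aars had medians of -0.59, -0.69 and -0.67. Of these neighbours, 60 of 80, 38 of 59 and 50 of 67 had higher values. Off chromosome 8, 5 of 17 fell. The members Slc7a5 and Eif4ebp1 share that chromosome, whose part in their values was not tested.

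In the list of eIF2, its exchange factor eIF2B and their regulators, 6 of 16 fell and 2 rose (median -0.13). Eif2s2, the beta subunit of eIF2, averaged 603 ± 49.4 CPM in the libraries labelled DKO and 945 ± 12.6 CPM in WT (log2 fold change -0.65 ± 0.05 (SE), edgeR adjusted p = 2.6e-13), and Eif2b5, the catalytic subunit of eIF2B, averaged 486 ± 56.8 CPM in the libraries labelled DKO and 851 ± 32.8 CPM in WT (log2 fold change -0.81 ± 0.06 (SE), edgeR adjusted p = 9.6e-10). Impact, an inhibitor of GCN2 activation, rose (0.45), and so did Ppp1r15b (0.28), the constitutive counterpart of Ppp1r15a, named after its value was seen. None of these genes lies on chromosome 8.

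Of the other genes linked to ATF4, 8 of 21 fell and 5 rose (median -0.09). Jdp2, a bZIP repressor, averaged 6.33 ± 1.06 CPM in the libraries labelled DKO and 19.4 ± 2.15 CPM in WT (log2 fold change -1.61 ± 0.15 (SE), edgeR adjusted p = 2.7e-11). Gadd45a, a growth arrest gene that p53 also induces, averaged 16.6 ± 1.98 CPM in the libraries labelled DKO and 5.17 ± 0.356 CPM in WT and rose (log2 fold change 1.68 ± 0.15 (SE), edgeR adjusted p = 3.1e-11). Map1lc3b, an autophagy gene on distal chromosome 8, fell (-0.55), where its 91 tested neighbours had a median of -0.59. Of these neighbours 50 had a lower value and 41 a higher one. Of genes for chaperones of the endoplasmic reticulum and the ATF6 and XBP1 branches, 8 of 21 fell and 4 rose (median -0.07). Calr (-0.62) and Herpud1 (-1.16), a calcium-binding chaperone and a degradation factor, fell on chromosome 8, where their neighbours had medians of -0.59 and -0.52. Pdia4 (-0.63), a disulfide isomerase, fell on chromosome 6, where its 41 tested neighbours had a median of -0.22.

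In glutamine, aspartate, arginine and proline metabolism 6 of 15 fell and 3 rose (median -0.19). Oat, ornithine aminotransferase (-1.19), and Glul, glutamine synthetase (-0.59), were among those that fell. Of other folate and methionine cycle genes 3 of 17 rose and 2 fell (median -0.06), with Ggh (0.71), a folate hydrolase, and Aldh1l1 (0.98), the cytosolic counterpart of Aldh1l2, higher and Fpgs (-0.24), a folate ligase, lower. Of mitochondrial stress chaperones and proteases 3 of 9 fell and none rose (median -0.07): Lonp1 (-0.32), Hspd1 (-0.18) and Hspa9 (-0.15).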

How the data were processed

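The authors deposited a single table of raw exon counts, whole numbers by Ensembl gene, with a column for each of the 9 libraries. Per the submitters' processing notes, reads were handled with cutadapt, STAR, featureCounts and DESeq2 on build mm10, without versions. The annotation, the strand setting and the rule for multi-mapped reads were not given in the sources used here. Per the labels' protocols, 600 ng of RNA entered a 3′ end kit, and molecular identifiers were not described, so floors cover counting error only. Of 52550 identifiers, 52403 matched GENCODE mouse release M21. Replicate libraries differed beyond sampling noise (chi-square per degree of freedom 2.3 to 5.31).

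Genes passing filterByExpr were scaled by TMM and tested over all 9 libraries with edgeR 4.0.16 (robust quasi-likelihood, R 4.3.3), with genotype as the only term and Benjamini-Hochberg adjustment over all tested genes. Each SE was derived from the F statistic. Neighbours are tested genes within 5 Mb. Alternatives were RLE factors, library totals, TMM without chromosomes 6, 8 and Y, other filters, DESeq2 1.42.0, limma-voom 3.58.1, no robust step, a replicate block and fewer libraries. The members and lists were chosen with earlier results of these data known. Members were all named, with every library's value for Atf4, Atf3, Ddit3, the kinase and phosphatase genes and passing members of at least 0.5 in size; from each other list, up to 3 passing genes with the smallest p were named. A gene that this rule would name is not reported here.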

Additional observations from a re-analysis of the deposited data

Results flagged for a closer look

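Among 70 groups of libraries (35 tested members in each genotype), 5 held a library far from the others of its group by Dixon's test at 95%, where chance flags about 1 in 20 groups. Atf3 stood at 1.57 CPM in DKO 2, against 0.299 to 0.506 CPM in the other libraries labelled DKO, and at 3.53 CPM in WT 3, against 2.74 to 2.84 CPM in the other WT libraries. Ppp1r15a was low in DKO 3, at 35.1 CPM against 40.3 to 41.9 CPM. Shmt1 was high in DKO 3, at 422 CPM against 361 to 373 CPM. Pycr1 was high in WT 4, at 47.0 CPM against 36.7 to 38.0 CPM in the other WT libraries.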

How the results depend on the processing

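Over 19 other fits, 7 to 10 members rose (9 as reported) and 11 to 13 fell (13 as reported), all within 1.5 times the reported counts, as were the counts over all genes and over the 8 other lists together. Of the values of single members across these fits, 648 stayed on their side of the threshold, 11 no longer passed and 3 newly passed. None that passed changed sign. Several members that did not pass changed sign between fits, such as Atf5 (log2 fold change -0.05 to 0.16) and Phgdh (-0.24 to 0.02). The calls concerned are those of Ppp1r15a, Psat1, Slc38a1, Slc1a5, Slc1a4 and Pycr1, given with their values above, and their cause was not tested. Deviations of same-numbered libraries correlated weakly across genes (0.01 to 0.07), against -0.057 to 0.052 for libraries of unlike number. Values this small do not settle whether the numbers pair the libraries. With the replicate number as a block, 9 members rose and 13 fell. WT 1, 3 and 4 correlated best with the library of their own number and WT 2 with DKO 5, which is a hint from the data and not the design. Single-list counts moved by over 1.5 times in a few cases. The synthetases that fell were 5 without counting chromosome 8, a setting chosen after the data were seen, the endoplasmic reticulum list had 5 falls without DKO 4 and 5 together, and the other transporters had 2 rises with no filter on low counts, and the others moved by 1 gene. Depth limits Atf3, Cebpb, Aldh1l2 and Slc7a11, which lie within a few CPM of the floor.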
